A study of Mus musculus with 2 samples.

Results

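Actin regulators and focal adhesion proteins are here 57 genes for actin itself, the proteins that bundle, elongate, cap, sever and branch its filaments, the linkers between filaments and the membrane, and the proteins of the sites where integrins hold the cell to its matrix. The members were found by the gene name printed in the array files, and all 57 of the 34820 names measured were present, with 97 probes. For most values 1 probe per gene was used, the one with the highest brightness over both channels and both arrays. Each of the 2 arrays set the epidermis of a K14-rtTA;TRE-Sox11-FLAG pup (SOX11-induced) against that of a K14-rtTA littermate (control), both FVB/N mice at postnatal day 4.5 that had received doxycycline (Dox) for 12 h. K14-rtTA makes a Dox-dependent activator under the keratin 14 promoter, so that the second transgene is switched on in keratin 14 positive cells and not in the whole sheet, and the epidermis had been separated from the dermis with dispase. Both groups carried the activator and Dox, and each channel of an array held the RNA of 1 pup of a gender-matched pair. The question was which genes respond to SOX11 in postnatal epidermis. Control RNA was labelled with Cy3 and SOX11-induced RNA with Cy5 on both arrays, per the labels, so that a positive log2 ratio means brighter in SOX11-induced epidermis. Within a probe, what the dye adds and what the genotype adds cannot be told apart. The methods describe a colour swap that the labels do not show.

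Actin monomers join into filaments, and a large set of proteins decides where a filament starts, how fast it grows, whether it branches and with which neighbours it is bundled. At focal adhesions, integrins in the membrane are coupled to these filaments by talin, vinculin and further adaptors, several of which carry LIM domains, and a cell that moves builds and dissolves such sites in turn. Keratinocytes at a wound edge remodel their actin as they migrate.

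The scanner software marked 37.5% and 38.7% of control-channel spots and 40.6% and 42.6% of SOX11-channel spots as well above background. Of the members, 55 were above background in all 4 channel readings. Pxn, which encodes paxillin, and Myh10, a non-muscle myosin heavy chain, were the exceptions, and no member was saturated. The 6 keratinocyte markers (Krt5, Krt14, Krt1, Krt10, Trp63 and Lor) were above background on both arrays. The sum of their normalised intensities was 472000 to 511000 in control and 575000 to 577000 in SOX11-induced epidermis. They did not move together. Krt5, Krt14 and Trp63 were lower in both pairs, with mean log2 ratios of -0.44, -0.31 and -0.23. Krt1, Krt10 and Lor were higher in both pairs, with means of 0.62, 0.58 and 0.50. None of them had an adjusted p under 0.05 (limma).

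The members with the highest ratios below were Tes and Fblim1, and the 250 bases before their starts are shown so that the letters a SOX protein can bind may be looked for there (RefSeq, GRCm38.p6, 5′ to 3′). Capitals mark AACAAAG or its reverse complement CTTTGTT, a form of the SOX core motif, and TGANTCA, the palindromic AP-1 letters. Both strands were searched, and these motifs share no letters in any window shown. The Tes window is chr6:17064899-17065148, plus strand. The first Fblim1 window is chr4:141599999-141600248, minus strand, and the second, for another start, is chr4:141606053-141606302, minus strand.
Tes upstream: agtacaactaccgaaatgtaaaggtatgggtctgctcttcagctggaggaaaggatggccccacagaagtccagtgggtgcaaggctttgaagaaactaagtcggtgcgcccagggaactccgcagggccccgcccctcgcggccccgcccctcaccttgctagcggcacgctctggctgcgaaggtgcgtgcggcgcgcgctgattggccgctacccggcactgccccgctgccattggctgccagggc
Fblim1 upstream of the first start: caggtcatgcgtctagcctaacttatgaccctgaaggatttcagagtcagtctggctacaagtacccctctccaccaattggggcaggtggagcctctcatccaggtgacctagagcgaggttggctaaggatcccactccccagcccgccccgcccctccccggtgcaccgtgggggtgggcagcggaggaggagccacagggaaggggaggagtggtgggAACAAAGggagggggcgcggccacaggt
Fblim1 upstream of the second start: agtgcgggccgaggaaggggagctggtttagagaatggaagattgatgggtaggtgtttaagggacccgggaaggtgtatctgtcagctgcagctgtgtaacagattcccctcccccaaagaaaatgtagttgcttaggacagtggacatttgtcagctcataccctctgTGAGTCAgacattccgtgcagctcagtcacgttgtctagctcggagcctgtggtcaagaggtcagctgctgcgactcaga

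In Tes the SOX letters lay just after the start, at base 3, and the 30 bases around them follow, with those around the matches in 2 further members, Enah and Rdx, which were at -181 and -182. These 30-base stretches are chr6:17065140-17065169, plus strand, chr1:182020143-182020172, minus strand, and chr9:52046957-52046986, plus strand.
Tes around the match: tgccagggcctCTTTGTTccaggtcccagc
Enah around the match: gggtgggcggcAACAAAGggccgtggccgc
Rdx around the match: actgtccctatCTTTGTTgcacccgtgggg

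Promoter windows of 300 bases (250 before to 50 after a start) were listed for 48 members. AACAAAG occurred in a window of 5 of these 48 genes (10.4%), against 6.68% of 27025 genes in the whole table. TGANTCA occurred in 5 of the 48 (10.4%), against 8.97% of all genes, and the 5 were Fblim1, Zyx, Limk2, Actn4 and Ezr. The counts describe these letters in these windows, and no binding was measured by the arrays.

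Of the 57 members, 7 were called higher in SOX11-induced epidermis, by an adjusted p under 0.05 (limma) with a mean log2 ratio over 1.5, and 0 were called lower. Over all 34820 gene names the shares called were 0.491% higher and 0.123% lower, and over the 16341 names above background in a channel on both arrays they were 1.05% and 0.263%. By adjusted p alone, 16 members (28.1%) rose and 0 fell, where 3.52% of all names rose and 1.78% fell, and where 6.93% rose and 3.52% fell among names above background. The median log2 ratio of the members was 0.36, against 0.03 for all names above background. It was 0.52 in pair 1 and 0.18 in pair 2, so that leaving out pair 1 brought it down to 0.18. With an offset of 50 or an intensity trend in the variance, 23 members rose and 2 fell, Rdx and Arpc1b. Of all 55676 probes, 4405 passed in either direction with that offset and 4683 with that trend. At an unadjusted p under 0.05 in limma, 26 members were higher and 2 lower, and the share of all names at that level was not counted.

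**Figure D1:**
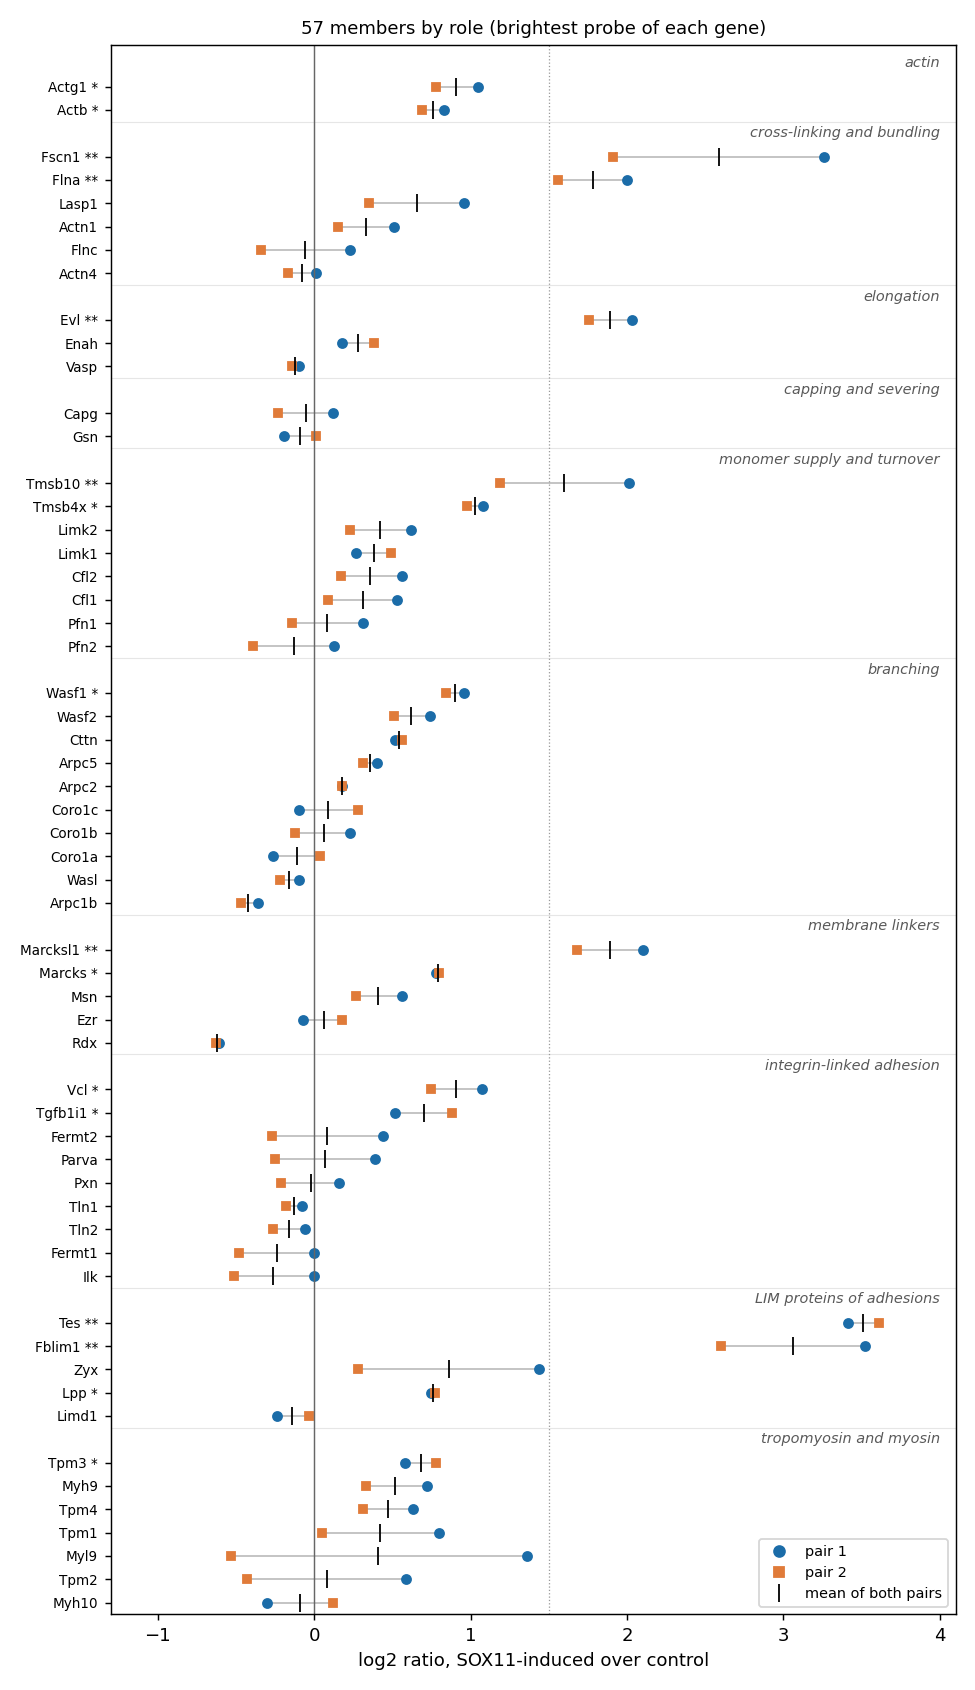
Log2 ratio of SOX11-induced over control epidermis for the brightest probe of each of the 57 members, in pair 1 (circles) and pair 2 (squares), with the mean of both pairs (bars); dotted line at 1.5, ** called, * adjusted p under 0.05 alone. The 7 called members lie to the right, led by Tes at a mean of 3.51, and the lowest mean is that of Rdx at -0.62.

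The LIM proteins of adhesions held the members with the highest ratios, and 3 of these 5 rose. Tes encodes testin, a LIM protein of focal adhesions and stress fibres. Its brightest probe, at chr6:17055712-17055771 (plus strand, mm9), had log2 intensities of 7.88 and 7.90 in the control channels and 11.29 and 11.51 in the SOX11 channels of pairs 1 and 2. The log2 ratios were 3.41 and 3.61, on average 3.51 ± 0.139 (SD, n = 2) or 11.4-fold (limma, adjusted p = 1.69e-05). The pairs lay closer together for Tes than for any other called member. A second Tes probe was above background on neither array.

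Fblim1 encodes migfilin, an adaptor between filamin and the kindlin-bound integrins. Its probe, at chr4:141132045-141132104 (minus strand, mm9), had log2 intensities of 6.97 and 7.90 in the control and 10.50 in both SOX11 channels. The log2 ratios were 3.52 and 2.60, with a mean of 3.06 ± 0.651 (SD, n = 2), or 8.36-fold (limma, adjusted p = 0.00013). After the array-wide shift was taken off, the control reading was 0.73 higher in pair 2 than in pair 1, while the SOX11 reading differed by -0.20. Lpp, a zyxin relative, rose by 0.76 ± 0.00878 (SD, n = 2; limma, adjusted p = 0.0232). Zyx itself, which encodes zyxin, had ratios of 1.44 and 0.28 and was not past the threshold (limma, adjusted p = 0.0824). Limd1 was the lowest of the group at -0.14.

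Of the 6 cross-linking and bundling proteins 2 (33.3%) rose, and both were called. Fscn1 encodes fascin, which packs filaments into the tight parallel bundles of filopodia. Its probe, at chr5:143734308-143734367 (plus strand, mm9), read 6.34 and 7.33 in the control channels and 9.60 and 9.24 in the SOX11 channels, on the log2 intensity scale. The log2 ratios of 3.26 and 1.91 gave a mean of 2.59 ± 0.958 (SD, n = 2; limma, adjusted p = 0.000911). The SOX11 reading was the higher one in both pairs, but the size of the change was 9.60-fold in pair 1 and 3.75-fold in pair 2. Flna encodes filamin A, which joins crossing filaments into a gel and links them to integrins. Its probe, at chrX:71468802-71468861 (minus strand, mm9), read 12.38 and 12.62 in control and 14.38 and 14.18 in SOX11-induced epidermis. The ratios were 2.00 and 1.56, averaging 1.78 ± 0.313 (SD, n = 2; limma, adjusted p = 0.000524), or 3.43-fold.

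The other cross-linkers did not pass. Lasp1, a LIM and SH3 protein of the leading edge, had ratios of 0.96 and 0.35. Actn1, an alpha-actinin, had a mean of 0.33. Flnc and Actn4 were at -0.06 and -0.08. The muscle filamin gene Flnc and the other filamin gene, Flna, thus had means of -0.06 and 1.78, a difference between the genes that was not tested.

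Among the elongation factors, which hold growing filament ends, Evl was called and its relatives were not. Evl, at chr12:109926666-109926725 (plus strand, mm9), read 11.32 and 11.66 in control and 13.35 and 13.42 in SOX11-induced epidermis. The log2 ratios of 2.03 and 1.76 had a mean of 1.89 ± 0.195 (SD, n = 2; limma, adjusted p = 0.000274), or 3.72-fold. Enah, which encodes Mena, had a mean of 0.28 (limma, adjusted p = 0.333), and Vasp had a mean of -0.12 (limma, adjusted p = 0.693).

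The monomer supply and turnover group held 2 risers of 8 (25.0%), both thymosins. Thymosins are small peptides that bind actin monomers and keep them from joining filaments. Tmsb10, at chr6:72907492-72907550 (minus strand, mm9), read 11.61 and 12.02 in control and 13.62 and 13.21 in SOX11-induced epidermis. Its ratios were 2.01 and 1.19, with a mean of 1.60 ± 0.581 (SD, n = 2; limma, adjusted p = 0.00261), or 3.03-fold. Pair 2 alone was under the log2 threshold of 1.5, the only called member for which this held. Tmsb4x had ratios of 1.08 and 0.98, averaging 1.03 ± 0.0674 (SD, n = 2; limma, adjusted p = 0.00573), or 2.04-fold. The profilins, which hand monomers to growing ends, were at 0.08 (Pfn1) and -0.13 (Pfn2). The cofilins, which sever and disassemble filaments, were at 0.31 (Cfl1) and 0.36 (Cfl2), and the LIM kinases that inactivate cofilin were at 0.38 (Limk1) and 0.42 (Limk2). None of these 6 passed the threshold.

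Among the 5 membrane linkers 2 rose. Marcksl1 and Marcks encode membrane-bound substrates of protein kinase C that bind actin. Marcksl1, at chr4:129192947-129193006 (plus strand, mm9), read 9.02 and 9.39 in control and 11.12 and 11.07 in SOX11-induced epidermis. The ratios were 2.10 and 1.68, on average 1.89 ± 0.296 (SD, n = 2; limma, adjusted p = 0.000369), or 3.71-fold. Marcks rose by 0.79 ± 0.0107 (SD, n = 2; limma, adjusted p = 0.02), with ratios of 0.78 and 0.80.

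The ezrin, radixin and moesin genes, whose proteins tie filaments to membrane proteins, did not move together. Ezr was at 0.06 and Msn at 0.41. Rdx had the lowest mean of all members, -0.62 ± 0.00816 (SD, n = 2), with ratios of -0.61 and -0.63, and stood at the threshold (limma, adjusted p = 0.0508). It passed with an offset of 50 (adjusted p = 0.00829), with the intensity trend in the variance (adjusted p = 0.0101) and among probes above background alone (adjusted p = 0.0377). It did not pass with median spot brightness (adjusted p = 0.0784), the authors' log2 ratios (adjusted p = 0.0772), processed signals (adjusted p = 0.244) or median centring, where its mean was -0.04 (adjusted p = 0.85), and the median over its probes was -0.32. A second Rdx probe had ratios of 0.27 and -0.32.

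**Figure D2:**
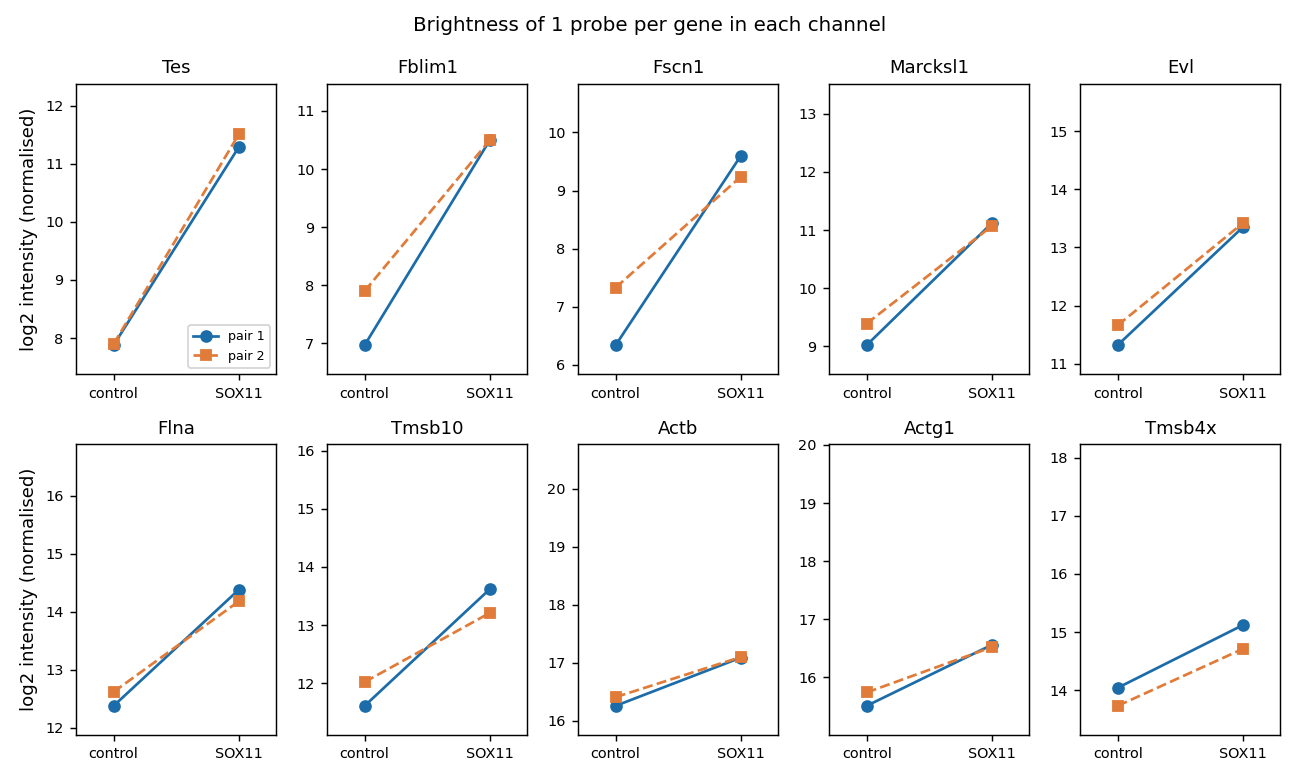
Normalised log2 intensity of 1 probe per gene in the control and SOX11 channels of pair 1 (circles, solid) and pair 2 (squares, dashed), for the 7 called members and for Actb, Actg1 and Tmsb4x; each panel spans 5 log2 units with its own start, so that slopes but not heights can be compared between genes. The control readings of Fblim1 (6.97 and 7.90) and Fscn1 (6.34 and 7.33) differ more between pairs than those of Tes (7.88 and 7.90).

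Both cytoplasmic actins rose, by less than the called members. Actb, which encodes beta-actin and is often used as a reference transcript, had ratios of 0.83 and 0.69 and rose on average by 0.76 ± 0.0954 (SD, n = 2; limma, adjusted p = 0.0243), or 1.69-fold. Actg1, which encodes gamma-actin, had ratios of 1.05 and 0.78, averaging 0.91 ± 0.194 (SD, n = 2; limma, adjusted p = 0.0127). All 5 Actg1 probes rose, with means from 0.76 to 0.93. Positions of some overlap, by up to 50 bases, so that the 5 probes are not independent. One of them is placed on chromosome 8 by the array file and the others on chromosome 11. Actin genes and their pseudogenes are alike in sequence, so that a probe may read several of them.

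Among the 10 branching proteins, which start side branches through the Arp2/3 complex or act on it, 1 rose. Wasf1, a WAVE protein that activates Arp2/3, had ratios of 0.96 and 0.84, averaging 0.90 ± 0.0863 (SD, n = 2; limma, adjusted p = 0.0117). Its relative Wasf2 was at 0.62 (limma, adjusted p = 0.056) and the cortactin gene Cttn at 0.54 (limma, adjusted p = 0.0773). The Arp2/3 subunits were at -0.42 (Arpc1b, the lowest of the group; limma, adjusted p = 0.155), 0.18 (Arpc2) and 0.36 (Arpc5). The coronins, which disassemble branches, lay between -0.11 (Coro1a) and 0.09 (Coro1c).

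The integrin-linked group had 2 risers of 9 (22.2%, against 6.93% of all names above background) and a median log2 ratio of -0.02. That median is the value of Pxn, whose probe was above background in no channel reading. Vcl encodes vinculin, which binds talin and actin at adhesions under tension. It had ratios of 1.07 and 0.75, averaging 0.91 ± 0.227 (SD, n = 2; limma, adjusted p = 0.0139), while its dimmer probe, with a mean of 0.40, was not past the threshold. Tgfb1i1, which encodes the paxillin relative Hic-5, had a mean of 0.70 ± 0.258 (SD, n = 2; limma, adjusted p = 0.0427). Its control readings were 5.89 and 6.09 on the log2 scale, and its second probe was above background in no channel reading. The Tgfb1i1 mean was 0.48 with an offset of 50, 0.86 with median spot brightness and 1.16 with processed signals. The talins, which activate integrins, were at -0.13 (Tln1) and -0.16 (Tln2). The kindlins were at -0.24 (Fermt1) and 0.08 (Fermt2), and their partners Ilk and Parva at -0.26 and 0.07. Ilk was the lowest of the group.

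Of the 7 tropomyosins and myosins 1 (14.3%) rose, against 6.93% of all names above background. Tpm3, a tropomyosin that coats non-muscle filaments, had ratios of 0.58 and 0.78, on average 0.68 ± 0.142 (SD, n = 2; limma, adjusted p = 0.0395). It missed the threshold with median spot brightness (adjusted p = 0.0717). Tpm1, Tpm4 and Myh9 had means of 0.42, 0.47 and 0.52 and did not pass. The cappers and severers Capg and Gsn were at -0.05 and -0.09.

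The pairs differed for several members. In 42 of 57 members the ratio was larger in pair 1, with a median difference of 0.28, whereas 8117 of 16341 names above background had the larger ratio in pair 1. The difference was over 1 log2 unit in 4 members. Myl9, the regulatory light chain of smooth muscle and non-muscle myosin, had ratios of 1.36 and -0.53. Tpm2 had ratios of 0.59 and -0.43. The others were Zyx and Fscn1, given above. After the array-wide shift was taken off, the control reading of these 4 members was higher in pair 2 than in pair 1. That difference ran from 0.80 (Fscn1) to 1.74 (Myl9) log2 units. Their SOX11 readings in pair 2 differed from those in pair 1 by -0.13 to -0.56.

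Markers of other cell types were set beside this. Of 7 muscle and pericyte markers, 4 were above background, and Myh11, Des and Ckm were not. Their summed normalised intensity was 389 and 623 in the control and 637 and 585 in the SOX11 channels of pairs 1 and 2. Tagln, a smooth muscle gene, had ratios of 1.11 and -0.31, opposite in sign between the pairs as for Myl9 and Tpm2. The other 3 markers above background were positive in both pairs, Acta2 at 0.54 and 0.21, Cnn1 at 0.79 and 0.27, and Acta1 at 0.45 and 0.25. Their part in those values was not tested. The 7 called members had the same sign in both pairs, which the rule for a call all but requires. In pair 2 their control readings differed from pair 1 by -0.18 (Tes) to 0.80 (Fscn1) log2 units, after the array-wide shift was taken off.

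The remaining marker lists are given by their sums in the control and then the SOX11 channels of pairs 1 and 2. The 7 fibroblast markers, of which Lum and Pdgfra were not above background, summed to 2530 and 2300 in control and 2420 and 2740 in SOX11-induced epidermis. The 6 leukocyte markers, with Lyz2 not above background, summed to 13700 and 6030 in control and 10400 and 4520 in SOX11-induced epidermis. Only Dcn, a fibroblast gene, passed the threshold among all the markers, with a mean of -0.79 (limma, adjusted p = 0.026). Other fibroblast markers above background had positive means, 0.37 for Col1a1, 0.49 for Col1a2, 0.37 for Col3a1 and 0.10 for Vim. The ratios of these collagen genes were negative in pair 1 (-0.03, -0.17 and -0.17) and positive in pair 2 (0.77, 1.14 and 0.91). The 4 melanocyte markers summed to 7550 and 6580 and then to 9720 and 6610. The 4 endothelial markers, with Cdh5 and Tek not above background, summed to 720 and 825 and then to 669 and 764. The part of these cells in the members' values was not tested, and in whole epidermis fewer cells of a type and less RNA per cell cannot be told apart.

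**Figure D3:**
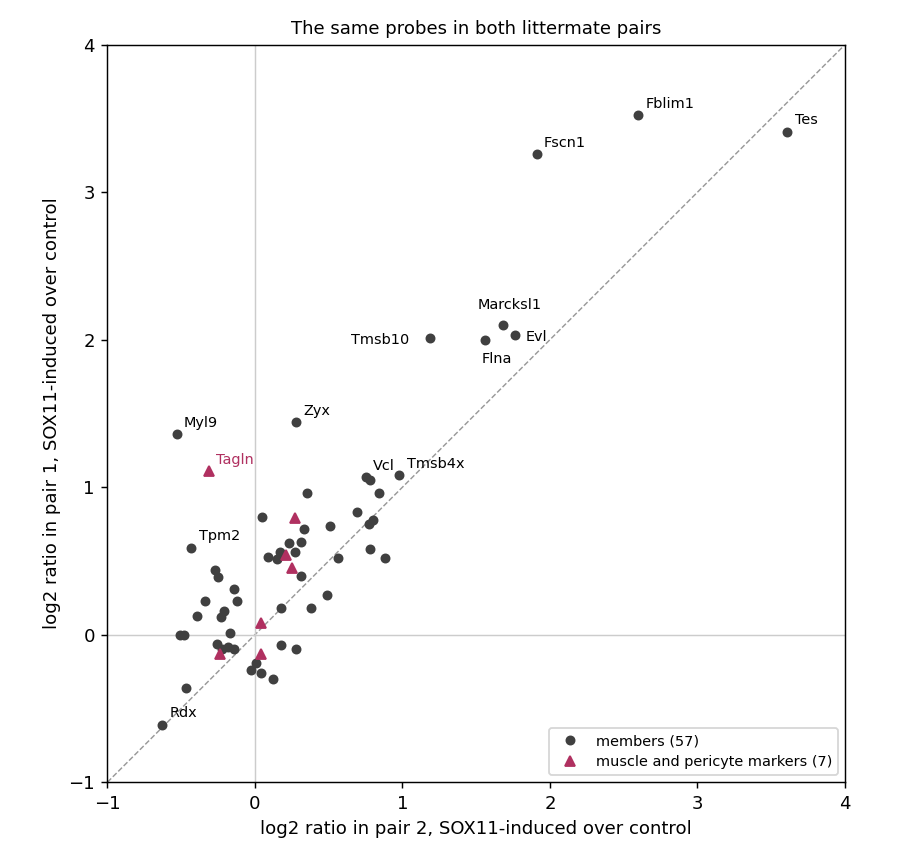
Log2 ratio of SOX11-induced over control epidermis in pair 2 (horizontal) and pair 1 (vertical) for the 57 members (circles) and the 7 muscle and pericyte markers (triangles), with the line of equal ratios (dashed). In 42 members the point lies above that line; Myl9 (1.36 and -0.53) and Tagln (1.11 and -0.31) lie in the upper left.

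Several probes were available for 28 members, and in 20 of these more than 1 was above background. In 6 of the 20 the probes fell on different sides of the threshold or of 0. For Vcl, Lpp and Tpm3 the brightest probe was past the threshold and the other was not, although the direction was the same. The other Lpp probe had a mean of 0.51 (limma, adjusted p = 0.0943). The other Tpm3 probe had ratios of 0.01 and 0.67. For Parva, Pfn1 and Wasl the probes had opposite signs near 0, from -0.22 to 0.10, and none passed. The 2 Tmsb10 probes were both called at a mean of 1.60, but their positions overlap by 57 bases so that they are not independent.

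**Figure D4:**
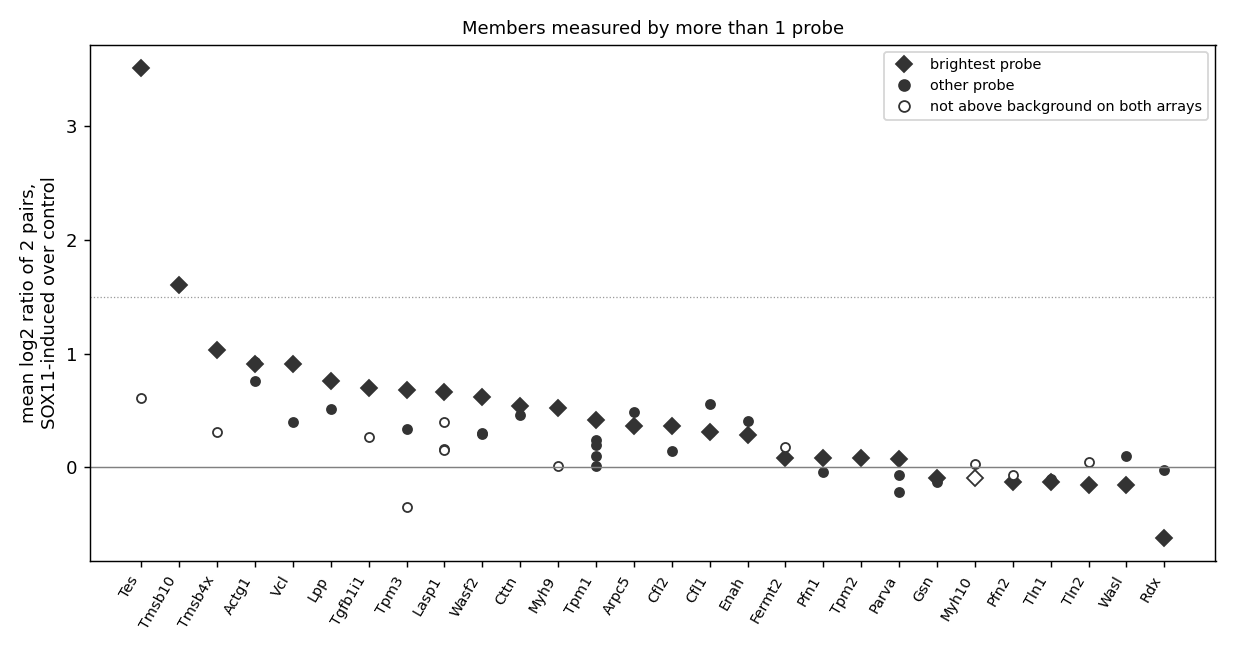
Mean log2 ratio of the 2 pairs for every probe of the 28 members with more than 1 probe (diamonds, brightest; circles, other; open, not above background on both arrays), with a dotted line at 1.5. The dimmer probes of Vcl (0.40) and Tpm3 (0.34) lie below the brightest ones (0.91 and 0.68).

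Further genes of the same processes were read from 3 lists of 58 genes in all. Among all names above background, 6.93% rose and 3.52% fell by adjusted p alone. None of the 15 other Arp2/3 and WAVE subunits passed, and their means ran from -0.19 to 0.31. Of 15 formins and filopodial proteins, 1 (6.67%) rose, near the share over all names above background. It was Fmnl2, a formin of protrusions, whose control reading was not well above background. Only a bound of at least 1.56-fold higher can therefore be given. The bound was not tested, and the adjusted p (limma, 0.0245) belongs to the mean log2 ratio of 0.85 taken without it.

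Of 28 further adhesion proteins, 5 (17.9%) rose, against 6.93% of names above background. In the same list 1 fell, Tns1, which was also called (3.57% of the list, against 0.263% of names above background called lower). Tns1 encodes tensin, which binds integrin tails and actin. It read 10.19 and 10.69 in control and 8.55 and 8.66 in SOX11-induced epidermis, and its ratios were -1.64 and -2.03. The mean was -1.83 ± 0.273 (SD, n = 2; limma, adjusted p = 0.000391). The highest of the risers were Ptk2, which encodes focal adhesion kinase, at 0.93, the LIM protein gene Pdlim1 at 0.92 and Lims1, which encodes the Ilk partner PINCH, at 0.76. The medians of the 3 lists lay between 0.08 and 0.15, against 0.36 for the members. Members and lists were chosen with earlier results of these data known, so that this difference was not tested.

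**Figure D5:**
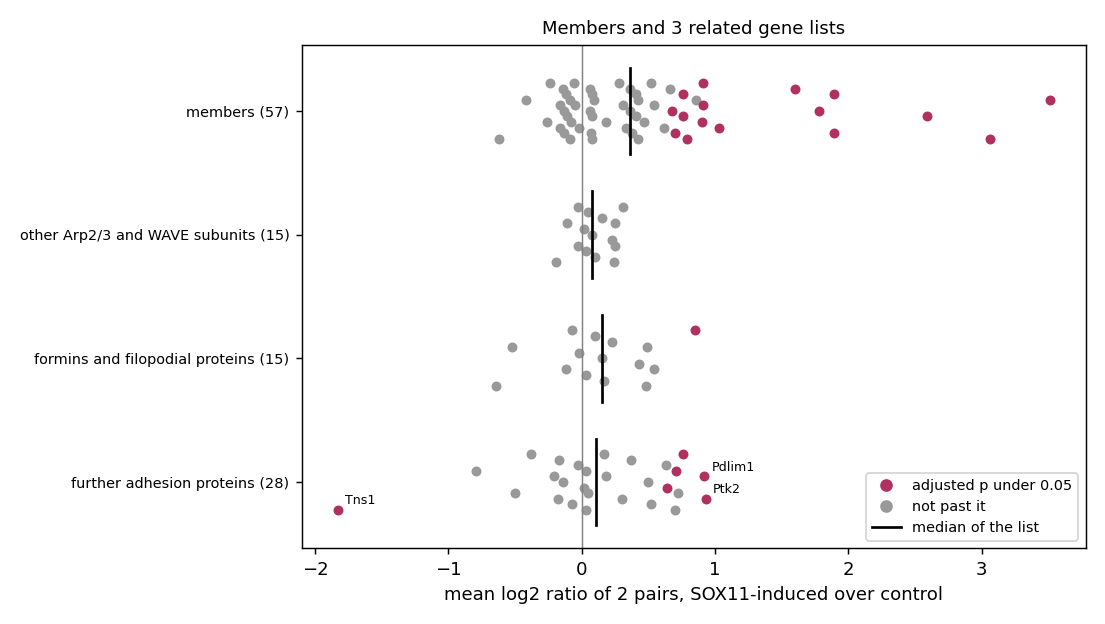
Mean log2 ratio of the 2 pairs for the members and 3 related gene lists (1 point per gene, with the number of genes in brackets; dark red, adjusted p under 0.05; grey, not past it; black bar, median). Tns1 at -1.83 is the lowest and Ptk2 at 0.93 the highest of the related genes.

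With the scanner software's processed signals in place of the corrected and loess-normalised brightness, 0 of the 57 members passed in limma (22 at an unadjusted p under 0.05), and 0 of all 55676 probes did. There the lowest adjusted p was 0.244. An exact sign-flip test over 2 arrays cannot go below 0.5, so that all calls rest on the variance prior that limma drew from all probes.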

How the data were processed

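RNA of 2 littermate pairs was hybridised to 2 two-colour Agilent arrays, which shared 1 slide and 1 scan. The intensity values that the authors deposited are, per the file headers, the brightness of each spot and its background from Agilent Feature Extraction 10.7.3.1, without normalization, with positions on mm9. The authors also deposited log2 ratios of both arrays, made with limma (normexp, loess). These were rebuilt here from median brightness to within 0.000462 over 55819 probes. A ComBat step in the methods was not needed for that match. The software's own log ratios and p-values were not used.

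Mean brightness was corrected by normexp with an offset of 16 and normalised by loess within each array, with control spots at weight 0 (R 4.3.3, limma 3.58.1). Spots with outlier flags were left out (194 and 186), and spots of a probe were averaged. An intercept was fitted to the log2 ratios of 55676 probes with moderated variances (prior of 8.34 degrees of freedom, prior SD 0.223) and Benjamini-Hochberg adjustment over all probes. All adjusted p-values are from limma. Called probes had an adjusted p under 0.05 and a mean log2 ratio beyond 1.5 up or down. A probe was above background if at least 0.5 of its spots were marked so by the scanner software. For Fmnl2, whose control reading was below that mark on both arrays, a lower bound was computed after Aquantile scaling, taking as control on each array its own signal or, if higher, the dimmest signal that was well above background. Such a bound is open to dye bias. The number of arrays limits the precision. The script was tested on simulated data.

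Members, roles and lists were chosen with earlier results of these data known. Named were all called members and those past the threshold, those with probes that disagree, the lowest and highest of each role, both actins, and up to 4 genes per related list. Myl9, Tpm2, Tagln and the remaining members were named after their values were seen. For 4 of the 92 genes of the related and marker lists an older name on the array was used. Alternatives were other offsets, brightness measures, centring, filters, probe summaries and variance models. Some further list genes and 1 promoter window are not reported here.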

Additional observations from a re-analysis of the deposited data

How the results depend on the processing

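The 7 called members were called under an offset of 50, median spot brightness, the authors' log2 ratios, only probes above background, a variance trend and the median over a gene's probes. The exception was the processed signals, with 0 called and 0 past the adjusted p in limma. With those signals 22 were at an unadjusted p under 0.05 in limma, of which 6 had a mean log2 ratio past 1.5. There 3 members had probes that differ. The 7 stayed called in 2 settings that called more. Median centring had 11 called, 43 past the adjusted p and a median of 0.93, and a linear threshold of 1.5-fold had 16 called. An offset of 50 and a variance trend each put 25 members past the adjusted p, 23 higher and 2 lower; the 2 were Rdx and Arpc1b (adjusted p = 0.0361 and 0.0479 for Arpc1b). Of all 55676 probes, 4405 passed the adjusted p with an offset of 50, 4683 with a variance trend and 18485 with median centring. Under median centring 756 of all probes were called. The comparison of probes across settings was added after seeing the data. The cause of these differences was not tested, except that median centring leaves probes above background at medians of 0.47 and 0.55. Most members shift up with it, but Pxn was at -0.04, against -0.02 in the main fit. Relative to the median of names above background, the members' median under median centring was 0.41.

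Under median centring, 14 members turned positive, with means of 0.64 (Actn4), 0.22 (Arpc1b), 0.66 (Capg), 0.48 (Coro1a), 0.15 (Flnc), 0.63 (Gsn), 0.34 (Ilk), 0.46 (Limd1), 0.02 (Myh10), 0.44 (Pfn2), 0.54 (Tln1), 0.13 (Tln2), 0.41 (Vasp) and 0.44 (Wasl). With processed signals Coro1b was at -0.04 and Ezr at -0.02, Flnc was at 0.09 with median brightness and with the authors' ratios, and Parva was at -0.07 over its probes. The members' median was 0.18 without pair 1 and 0.52 without pair 2; with 1 array left, no test could be made. The main fit is already paired, because each array holds a littermate pair and gives 1 ratio. No further pairing was possible with 1 group. The slide as a block was not run, since both arrays lie on 1 slide. Reference symbols in place of array names left the median at 0.36. Probes near background limit what can be said of Pxn and Myh10.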
